A study of Mus musculus with 26 samples.

Results

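The regions studied here are those of the enzyme EZH2 and of the histone mark H3K27me3 in ATRXΔRBR mouse embryonic fibroblasts (MEFs), set against each other by width, place and shared position. Both were measured by CUT&RUN, in which an antibody directs a nuclease to its target in permeabilized cells and the released DNA is sequenced. For each target there were 2 peak lists, and a peak was kept when it overlapped a peak of the other list by at least 1 bp. The rule kept 9456 and 9538 peaks of EZH2 (Rep1 and Rep2) and 26064 and 27782 of H3K27me3, in all 72840 of the 272147 peaks listed in the 16 peak lists of the series. ATRXΔRBR cells are a female MEF clone in which CRISPR removed the RNA binding region (RBR) from the endogenous ATRX protein, and all libraries of this genotype are from that one line. WT MEFs carry no such deletion and were profiled with the same antibodies, also with 2 lists for each target. A further group, labelled ATRX KD, holds MEFs with an shRNA against Atrx. RNA-Seq of polyadenylated RNA had 2 libraries for each of the 3 genotypes. The study describes its sequencing replicates as biological replicates of each line, so their spread is that between samples of 1 clone and not between clones.

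EZH2 is the catalytic subunit of Polycomb repressive complex 2 (PRC2), which places up to 3 methyl groups on lysine 27 of histone H3. The trimethylated form, H3K27me3, covers developmental regulators such as the Hox genes in cells that do not use them, and is bound by PRC1 and by PRC2 itself through its EED subunit. In mammals PRC2 is recruited mainly to unmethylated CpG-rich DNA, while the mark it leaves can reach far beyond the sites where the complex is detected. Writer and mark therefore need not lie at the same positions, and the comparison asks where they did in these cells.

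3 stretches of the genome show the kinds of region that were told apart. The first lies at the midpoint of the widest kept EZH2 peak whose central window touches no annotated UTR, and this peak was wholly covered by H3K27me3. The second is from the kept EZH2 peak of highest fold enrichment that lay off H3K27me3 and met the same condition. The third is from the widest kept H3K27me3 peak without EZH2. Capitals mark CG dinucleotides, and all 3 are given 5′ to 3′ on the plus strand of GRCm38 (mm10).
EZH2 with H3K27me3, chr6:52250016-52250315: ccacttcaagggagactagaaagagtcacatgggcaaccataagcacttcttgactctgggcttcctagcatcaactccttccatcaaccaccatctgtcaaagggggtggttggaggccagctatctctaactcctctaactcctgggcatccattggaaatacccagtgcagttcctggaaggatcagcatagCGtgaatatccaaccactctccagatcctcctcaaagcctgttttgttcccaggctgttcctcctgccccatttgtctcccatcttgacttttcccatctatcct
EZH2 without H3K27me3, chr4:124751421-124751720: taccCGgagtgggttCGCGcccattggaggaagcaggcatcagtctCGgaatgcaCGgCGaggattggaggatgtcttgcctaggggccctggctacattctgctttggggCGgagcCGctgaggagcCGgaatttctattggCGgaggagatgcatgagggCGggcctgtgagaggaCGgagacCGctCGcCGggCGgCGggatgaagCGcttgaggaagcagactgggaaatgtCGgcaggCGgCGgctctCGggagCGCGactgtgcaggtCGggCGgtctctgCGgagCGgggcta
H3K27me3 without EZH2, chr5:90464334-90464633: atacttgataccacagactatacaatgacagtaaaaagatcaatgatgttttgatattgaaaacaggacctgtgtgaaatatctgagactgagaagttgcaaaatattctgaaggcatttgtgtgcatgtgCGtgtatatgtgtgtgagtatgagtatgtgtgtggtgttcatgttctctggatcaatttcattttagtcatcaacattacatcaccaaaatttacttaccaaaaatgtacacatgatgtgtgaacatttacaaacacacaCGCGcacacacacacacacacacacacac
The first stretch is intergenic, 4356 bp from the TSS of Hoxa11 inside the Hoxa cluster, and has 1 CG and a GC content of 50%. The second overlaps an exon of Inpp5b, which encodes an inositol phosphatase, and has 28 CG and a GC content of 65.3%, nearly as many CG as its base composition would give (observed to expected ratio of 0.959). The third lies in an intron of Alb, the serum albumin gene of liver, and has 3 CG and a GC content of 36.3%. In Rep1, from which all 3 were chosen, the EZH2 peak around the first stretch was 38522 bp wide and that around the second 477 bp. The H3K27me3 peak around the third was 136468 bp wide.

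EZH2 peaks were narrow and H3K27me3 peaks broad. The median width of the kept EZH2 peaks was 846 bp in Rep1 and 436 bp in Rep2, and that of the kept H3K27me3 peaks was 3036 and 2419 bp. The groups did not overlap, with means of 641 ± 290 bp and 2728 ± 436 bp (SD, n = 2 lists each) and a ratio of 4.26. An exact two-sided permutation test over the 4 lists gave p = 0.333, which is the smallest p that 2 lists against 2 can give, here and in every comparison of lists that follows. Widths of 5 kb or more were found for 180 and 183 EZH2 peaks (1.90% and 1.92%) but for 8139 and 7137 H3K27me3 peaks (31.2% and 25.7%). Kept EZH2 peaks covered 11.3 and 7.97 Mb, which is 0.415% and 0.292% of the assembled chromosomes. Kept H3K27me3 peaks covered 134.8 and 122.2 Mb, or 4.94% and 4.48%.

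**Figure D1:**
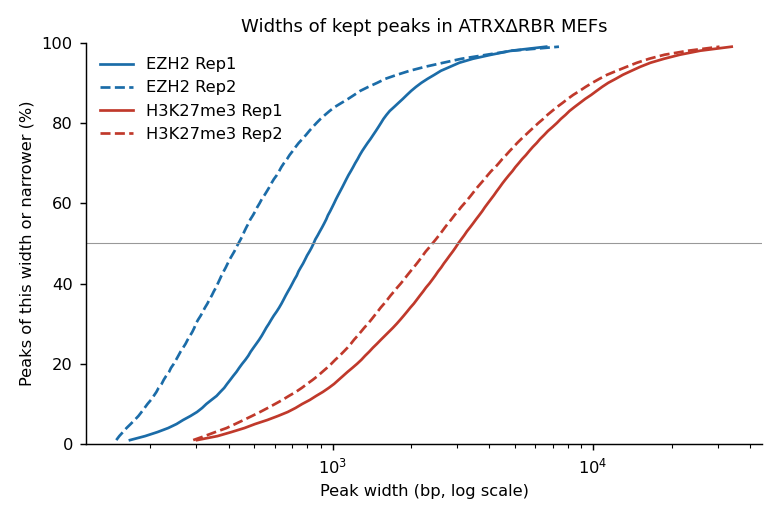
Share of kept peaks (y axis, %) that are no wider than the width on the x axis (bp, log scale), for the EZH2 (blue) and H3K27me3 (red) lists of ATRXΔRBR cells, with Rep1 as solid and Rep2 as dashed lines. The H3K27me3 curves lie to the right of both EZH2 curves, and the grey line at 50% crosses them at the medians of 846, 436, 3036 and 2419 bp.

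The kept sets rest on lists of unequal length. EZH2 Rep1 listed 22418 peaks and Rep2 11408, so that the rule kept 42.2% of the first and 83.6% of the second, against 67.5% and 84.0% of the 38651 and 33105 listed H3K27me3 peaks. The EZH2 peaks that were not kept had no counterpart close by: of 12945 in Rep1, 73 lay within 500 bp of a Rep2 peak. Just inside the rule, 79 of the 9456 kept Rep1 peaks had under 10% of their width covered by the other list. Because each list was filtered with the other, the agreement of the 2 kept lists in what follows is not an independent check.

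The writer sat at gene starts and most of the mark did not. A peak was placed at a TSS when it overlapped the 2 kb on either side of the start of any annotated gene, otherwise in a gene body or between genes. Of the kept EZH2 peaks 71.5% and 71.3% were at a TSS, 17.1% in each list in a gene body and 11.4% and 11.6% between genes. Of the kept H3K27me3 peaks 21.2% and 19.5% were at a TSS, whereas gene bodies held 33.2% and 33.5% and the DNA between genes 45.6% and 47.0%. The TSS shares differed by 51.0 percentage points, many times the spread between lists (exact permutation p = 0.333).

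About 1 in 5 EZH2 peaks lay on the mark. In Rep1 1903 kept EZH2 peaks (20.1%) overlapped a kept H3K27me3 peak and 7553 did not, and in Rep2 1792 (18.8%) did and 7746 did not. By length the overlap was larger, with 37.9% and 46.5% of the bases under EZH2 lying on H3K27me3. The reverse share was small: 1458 H3K27me3 peaks in Rep1 (5.59%) and 1436 in Rep2 (5.17%) held a kept EZH2 peak, and EZH2 covered 3.18% and 3.03% of the bases under the mark. Shared DNA came to 4.29 and 3.70 Mb. Of the EZH2 peaks of 5 kb or more, 179 of 180 and 179 of 183 were on the mark. Peaks of this width made up 9.41% and 9.99% of the EZH2 peaks on the mark, so most of these were narrower. A wider peak can also be overlapped at more positions.

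EZH2 peaks on the mark and off the mark differed in width, place and sequence. Peaks on the mark had a median width of 1680 and 1261 bp against 771 and 390 bp off it. Their median fold enrichment did not separate them, at 5.36 and 5.03 on the mark against 5.72 and 4.47 off it. Off the mark, 74.5% of EZH2 peaks in each list were at a TSS, against 59.2% and 57.4% on it. The median distance from a peak's midpoint to the nearest protein-coding TSS was 277 and 231 bp off the mark and 3238 and 3394 bp on it. Over whole peaks the DNA off the mark was richer in CG. The median observed to expected ratio of CG was 0.758 and 0.792, against 0.481 and 0.522 on the mark. Median GC content was 60.9% and 63.1% against 52.9% and 54.8%. Peaks on the mark were wider, and the part of width in these medians was not tested. The sequences from Inpp5b and from the Hoxa cluster above differ in the same direction but lie further apart than these medians, with ratios of 0.959 and 0.057.

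EZH2 peaks off the mark overlapped ATRX peaks more often than EZH2 peaks on the mark did. ATRX Rep1 peaks of the same cells overlapped 37.2% and 36.2% of the EZH2 peaks off the mark, against 2.63% and 1.95% of those on it. With ATRX Rep2 peaks the shares were lower, at 21.0% and 20.4% off the mark and 1.37% and 1.17% on it. IgG control libraries are not analysed here, and whether an IgG control entered the peak calls is not given in the sources used here. How many EZH2 peaks off the mark would be found without a specific antibody was therefore not tested.

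H3K27me3 peaks with EZH2 were the broad ones at genes. Their median width was 8783 and 7755 bp, against 2892 and 2286 bp for H3K27me3 peaks without EZH2. At a TSS lay 75.2% and 72.1% of the peaks with EZH2 and 17.99% and 16.6% of those without. Their midpoints were at a median of 4358 and 4348 bp from a protein-coding TSS, while peaks without EZH2 were 35260 and 35301 bp away. The DNA of the mark without EZH2 was poor in CG, with a median observed to expected ratio of 0.153 in both lists against 0.299 and 0.309 with EZH2, and its median GC content was 40.6% and 40.5% against 48.4% and 48.6%. The albumin intron shown above is from such a peak. Its GC content of 36.3% was low, but its observed to expected ratio of 0.303 was near the median with EZH2.

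**Figure D2:**
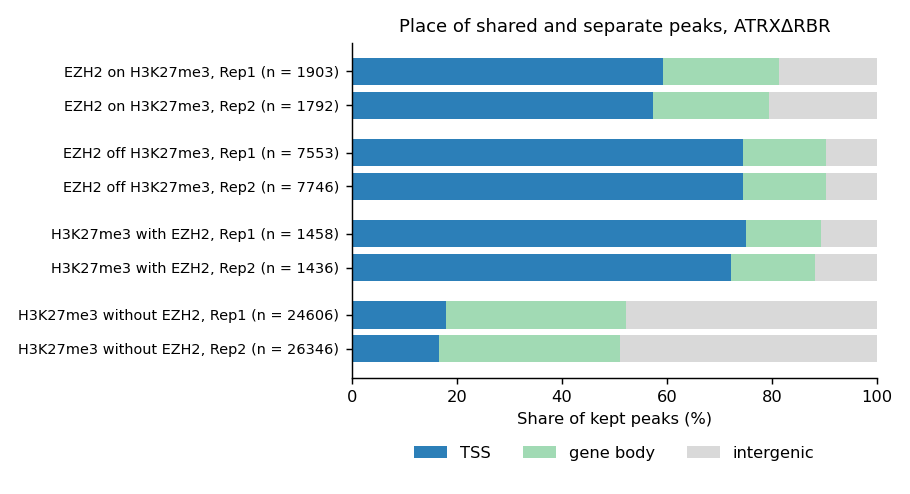
Share of kept peaks (x axis, %) within 2 kb of a TSS (blue), inside a gene (green) or intergenic (grey), for EZH2 on and off H3K27me3 and H3K27me3 with and without EZH2 in each list of ATRXΔRBR cells. H3K27me3 without EZH2 stands apart, with 17.99% and 16.6% near gene starts, while the other 3 kinds lie between 57.4% and 75.2%.

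The share of H3K27me3 peaks that held EZH2 rose with their width. Under 1 kb it was 1.18% and 1.14%, from 5 to 10 kb 8.50% and 8.99%, from 10 to 20 kb 16.4% and 16.9%, and at 20 kb or more 27.6% and 30.6% (251 of 910 and 227 of 743 peaks). A wider peak can be overlapped at more positions, so part of a rise of this kind follows from width alone. In WT lists the share at 20 kb or more was 70.5% and 64.5%. This gap depended on which EZH2 peaks were used. With all listed EZH2 peaks, 74.5% of the Rep1 H3K27me3 peaks of 20 kb or more held EZH2 in ATRXΔRBR, against 78.2% in WT. In Rep2 the gap stayed, at 32.0% against 69.4%. The part of the unequal EZH2 lists of ATRXΔRBR in this gap was not tested.

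**Figure D3:**
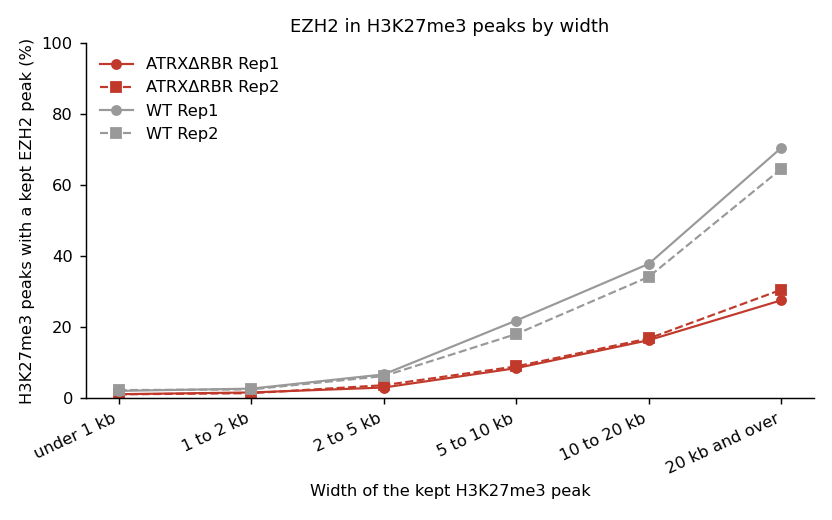
Share of kept H3K27me3 peaks that overlap a kept EZH2 peak (y axis, %) by the width of the H3K27me3 peak (x axis), for the lists of ATRXΔRBR (red) and WT cells (grey). The share rises in all 4 lists, to 27.6% and 30.6% in ATRXΔRBR and 70.5% and 64.5% in WT at 20 kb or more.

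Inside broad domains somewhat over 50% of EZH2 midpoints were in the central part. Of the EZH2 midpoints that fell within an H3K27me3 peak of 5 kb or more, 60.8% and 60.1% were in its central 50%. Even placement would put 50% there, and in WT the shares were 65.7% and 64.9%. In ATRXΔRBR most H3K27me3 peaks with EZH2 held 1 EZH2 peak (1182 and 1190), 276 and 246 held more, and the highest number was 10 in Rep1 and 12 in Rep2. EZH2 peaks off the mark were rarely at its edge. Their median distance to the nearest kept H3K27me3 peak was 58942 and 58756 bp, 4.81% and 4.85% lay within 2 kb of one, and 82.8% and 82.4% were more than 10 kb away.

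The widest shared domain was the whole Hoxc cluster. There a kept H3K27me3 peak of 257401 bp (chr15:102891988-103149388, Rep1) held all 9 Hoxc genes, and 10 kept EZH2 peaks covered 67.2% of it. Its Rep2 counterpart was 258310 bp wide, with 57.8% of the Rep1 domain under EZH2 in Rep2. The widest kept EZH2 peak of Rep1, of 111846 bp (chr15:102937676-103049521), lay inside it, and the widest of Rep2 was 130100 bp. Next came a domain of 133294 bp at Six6, a homeobox gene of eye and pituitary (chr12:72843828-72977121), with 15.9% and 11.3% under EZH2, and one of 105866 bp at Lbx1, a homeobox gene of muscle precursors and spinal cord (chr19:45218295-45324160), with 38.8% and 34.8%.

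The widest domains of the mark without kept EZH2 held genes of other tissues. The first, of 136468 bp (chr5:90396250-90532717), held Alb, Afp and Afm, which encode albumin, alpha-fetoprotein and afamin of liver. The second, of 113229 bp, held Lrrc37a and Gm884 (chr11:103464660-103577888), and the third, of 109078 bp, lay in Stxbp5l, which encodes a protein of synaptic vesicle release (chr16:37121725-37230802). Rep2 H3K27me3 peaks covered 98.9%, 97.7% and 95.2% of them. The unfiltered EZH2 lists covered 4.61%, 5.34% and 19.1% of these domains in Rep1 and 0% in Rep2.

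Gene starts were then sorted by what they carried. A protein-coding TSS was counted as carrying a target when kept peaks of both lists overlapped the 2 kb on either side. Of 21938 such TSS, 1081 (4.93%) carried both EZH2 and H3K27me3, 5996 (27.3%) EZH2 only, 1858 (8.47%) H3K27me3 only and 13003 neither. Of all TSS with EZH2, 15.3% had the mark, and of all TSS with the mark, 36.8% had EZH2. Among the 1081, EZH2 and the mark overlapped each other within the window at 852, and at 229 they were both in the window but apart.

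RNA was high at genes with EZH2 only and low at genes with the mark. TPM, a level per transcript length, was taken from the 2 ATRXΔRBR RNA-Seq libraries. Genes with EZH2 only had a median of 39.3 and 35.2 TPM, and 94.2% of them reached 1 TPM in each library. Where EZH2 and the mark overlapped, the median was 0.10 and 0.09 TPM and 29.2% reached 1 TPM in each library. Genes with H3K27me3 only had a median of 0 in both libraries, and 10.7% and 10.5% reached 1 TPM. The 229 genes at which the 2 targets stood apart had a median of 12.99 and 11.72 TPM, closer to EZH2 only than to the overlapping group. These genes included Rpl31, a ribosomal protein gene with 51.5 and 69.9 TPM, and Pcgf5, a PRC1 gene with 45.8 and 38.2 TPM, each with separate peaks of EZH2 and of the mark within 2 kb of the TSS.

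Promoter sequence differed by class as well. In the 300 bases from 250 before to 50 after each TSS, the median observed to expected ratio of CG was 0.804 for EZH2 only and 0.699 where both overlapped, against 0.235 for H3K27me3 only and 0.525 for all protein-coding genes. The letters CCGGAAG, which resemble the site of ETS factors, occurred on either strand in 19.1% of promoters with EZH2 only, 4.69% of those where both overlapped, 3.18% with H3K27me3 only and 10.8% of all. GCGCATGC, a form of the NRF1 site, was in 6.39%, 2.35%, 1.40% and 3.71% in the same order. TATAAA, the letters of the TATA box, went the other way, with 6.15%, 8.10%, 17.5% and 12.6%. A match of letters is a description of the DNA and no evidence that a factor was bound.

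The Hox genes, which set position along the body axis, showed how the classes divided a gene family. Of 39 Hox TSS, 22 carried both targets, all overlapping, 4 EZH2 only, 1 the mark only and 12 neither. The one with the mark only was Hoxd9, which overlapped a kept EZH2 peak of 30156 bp in Rep2 but none in Rep1. All 9 Hoxc genes carried both, and the highest TPM among them was 0.15 in Rep1 and 0 in Rep2. In the Hoxd cluster 7 of 9 carried both and no gene exceeded 0.07 TPM. The Hoxa cluster was divided. Hoxa9, Hoxa10, Hoxa11 and Hoxa13 lay under an EZH2 peak of 38522 bp and an H3K27me3 peak of 41828 bp (Rep1). In Rep2 there was no single EZH2 peak of this width, and 6 kept EZH2 peaks covered 85.0% of the Rep1 one. Hoxa5 carried neither and had 32.2 and 32.5 TPM. Hoxa7 had EZH2 only, in peaks of 415 and 202 bp, with 45.6 and 50.6 TPM. Some Hox genes with both targets had RNA, Hoxb9 at 65.87 and 65.95 TPM and Hoxa9 at 7.90 and 9.91 TPM.

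Other developmental regulators were mostly in the class with both or in none. Of 62 homeobox and Pax genes outside the Hox clusters, 27 carried both, 10 EZH2 only, 4 the mark only and 21 neither. Pax2, a regulator of kidney and midbrain, had EZH2 peaks of 24699 and 20667 bp under a domain of 74713 and 74366 bp, with 0.07 and 0 TPM. Irx5 had EZH2 only and 21.5 and 20.4 TPM. Of 38 forkhead, Sox, T-box and Gata genes, 14 carried both, among them Sox14, Foxb1 and Foxl2, each at 0 TPM in both libraries, and 5 carried EZH2 only, among them Foxc1 with 64.2 and 66.4 TPM. Of 24 bHLH regulators of nerve and muscle, 11 carried both, such as Olig2, Neurod2 and Neurog2, and none EZH2 only.

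Of 29 Wnt ligands and Frizzled receptors of Wnt signalling, 9 carried both, 9 EZH2 only, 4 the mark only and 7 neither. The ligands Wnt1, Wnt3, Wnt3a, Wnt5a, Wnt6, Wnt7a, Wnt7b and Wnt11 and the receptor Fzd3 carried both. Among those with the widest domains, Wnt6, Wnt3 and Wnt7b lay between 0 and 0.47 TPM, and Fzd3 had 4.01 and 1.65 TPM. The ligands Wnt4 and Wnt9a and the receptors Fzd1, Fzd2, Fzd4, Fzd5, Fzd7, Fzd8 and Fzd9 carried EZH2 only. Of these Fzd1 had 40.5 and 40.3 TPM and Fzd7 31.3 and 29.0 TPM, whereas Fzd9 had 0 and 0.25 TPM. The receptors Fzd6 and Fzd10 carried neither. Wnt8b carried the mark only, in a domain of 62547 and 54677 bp, at 0 TPM.

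In the lists of Polycomb and cell growth genes most TSS with EZH2 lacked the mark, which was also so over all TSS with EZH2, of which 15.3% carried it. Of 12 PRC2 subunit genes 6 had EZH2 only, 6 neither and none the mark, and Ezh2 itself was among the 6, with EZH2 peaks of 1432 and 167 bp and 246 and 206 TPM. Of 20 PRC1 genes 9 had EZH2 only, 3 both, 7 neither and 1, Phc2, the mark only. Bmi1 had the highest EZH2 fold enrichment of the 9, at 12.9 in Rep1, and Cbx8 carried both, with 11.7 and 17.1 TPM. Of 7 genes of the Ink4 locus and other cell cycle inhibitors 6 had EZH2 only and none the mark, Cdkn2a among them at 880 and 1330 TPM. Of 11 genes of H3K27 demethylases and of methyltransferases that oppose H3K27me3, 7 had EZH2 only and none the mark. Of 78 cytosolic ribosomal protein genes 47 had neither, 30 EZH2 only, such as Rps19 at 543 and 692 TPM, and 1, Rpl31, had both. The 5 genes with EZH2 only that ranked first by fold enrichment were Agps, Btrc, Arhgap19, Zfp41 and Zfp760, with fold enrichments in Rep1 from 13.6 to 14.7 and TPM from 10.8 to 58.7.

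Most genes of the large receptor clusters carried neither target, and those with a peak mostly had the mark only. Of 1135 olfactory receptor genes 946 (83.3%) carried neither, 187 (16.5%) the mark only, 1 both (Olfr1342) and 1 EZH2 only (Olfr12), where 8.47% of all protein-coding TSS had the mark only. No olfactory receptor gene reached 1 TPM. The widest peak there, of 84912 and 82708 bp, covered the TSS of Olfr1564, Olfr239 and Olfr55. Of 329 vomeronasal receptor genes 295 (89.7%) carried neither, 33 (10.0%) the mark only, a share near that of all TSS, and 1, Vmn1r4, EZH2 only. Of 57 clustered protocadherin genes 48 (84.2%) carried neither, 8 the mark only and 1, Pcdhgc3, EZH2 only. These lists hold near-identical genes, whose reads may not be assigned with certainty. Of 394 zinc finger genes named Zfp, 18 carried both, 120 EZH2 only and 25 the mark only. Of 28 protein-coding imprinted genes 2 carried both, Kcnq1 and Ascl2, 4 EZH2 only and 3 the mark only.

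**Figure D4:**
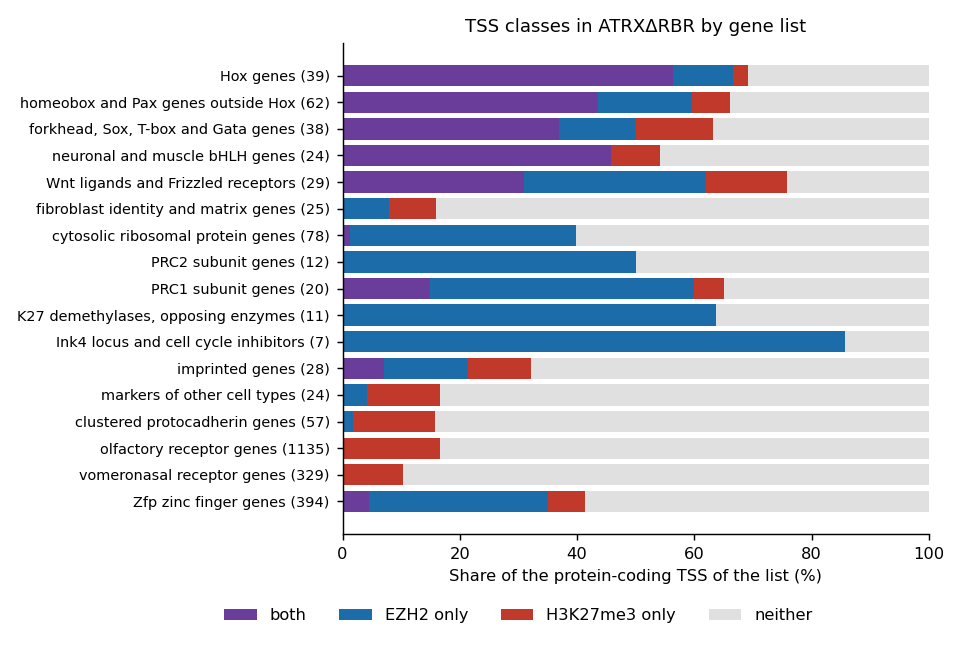
Share of the protein-coding TSS of each gene list (x axis, %) that carried EZH2 and H3K27me3 (purple), EZH2 only (blue), H3K27me3 only (red) or neither (grey) in ATRXΔRBR cells, with the number of TSS in parentheses. Hox genes have the longest purple bar, 22 of 39, while PRC2 genes have no purple and no red.

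Most genes on the list of fibroblast and matrix genes had RNA. Of the 25 genes 21 reached 1 TPM in both libraries, with Col1a1, a collagen gene, at 1304 and 1196 TPM and Vim at 5534 and 6235 TPM. Those under 1 TPM were Thy1, Postn, Fap at 0 in both libraries and Lum at 0.09 and 0 TPM. None of the 25 carried both targets, and Thy1 and Postn carried the mark only, at 0 in both libraries and at 0.34 and 0.05 TPM. Of 24 markers of epithelium, endothelium, blood, muscle, nerve and germ cells, 5 and 6 reached 1 TPM, the highest being Map2 with 22.2 and 16.2 TPM, and Ptprc, Epcam, Pou5f1 and Dazl were at 0 in both. Atrx itself had 175 and 124 TPM in ATRXΔRBR and 233 and 141 TPM in WT, but the gene level does not show the deletion. In the libraries labelled ATRX KD it had 331 and 512 TPM, above both WT libraries, so that they are used here only as labelled.

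Genes with the mark were called lower in ATRXΔRBR than in WT more often than all genes were. Each gene was compared by edgeR's quasi-likelihood test on rounded estimated counts, 2 libraries against 2, and called at an adjusted p-value (Benjamini-Hochberg) under 0.05. Over all 16287 genes tested 1120 were called (6.88%), 455 higher (2.79%) and 665 lower (4.08%) in ATRXΔRBR. Of genes with EZH2 only, 5758 of 5996 were tested, and 111 were called higher (1.93%) and 74 lower (1.29%), both shares under those of all genes. Of genes where EZH2 and the mark overlapped, 433 of 852 were tested, and 25 were called higher (5.77%) and 112 lower (25.9%). Of genes with the mark only, 352 of 1858 were tested, and 8 were called higher (2.27%) and 76 lower (21.6%). Where the 2 targets stood apart, 5 of 199 were called higher (2.51%) and 10 lower (5.03%). Without WT replicate 2 the calls at TSS with EZH2 only rose from 185 to 318. In such bulk libraries fewer cells of a type and less RNA per cell cannot be told apart. Of the 9 tested markers of other cell types 2 were called, both higher in ATRXΔRBR, Pecam1 of endothelium (20 and 21 counts in WT against 51 and 53) and Des of muscle (4 and 3, against 16 and 31). Neither was called by DESeq2 (adjusted p = 0.108 and 0.0625), and their part in these results was not tested.

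Part of the lower calls was set by the filter on counts. A gene silent in ATRXΔRBR is tested only if WT has enough reads, and then it has to be lower: 27 of the 112 lower genes with overlapping targets and 41 of the 76 with the mark only passed through the WT libraries alone. Among genes that would pass in each genotype on its own, 85 of 359 with overlapping targets (23.7%) and 35 of 264 with the mark only (13.3%) were called lower, against 3.49% of all protein-coding genes. The classes were also taken from lists of ATRXΔRBR, the genotype whose RNA is compared, so these counts are a description and no independent support. With classes taken from WT lists instead, 163 of 688 tested genes with both targets (23.7%) were called lower, 80 of them through the WT libraries alone, and 45 (6.54%) higher.

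**Figure D5:**
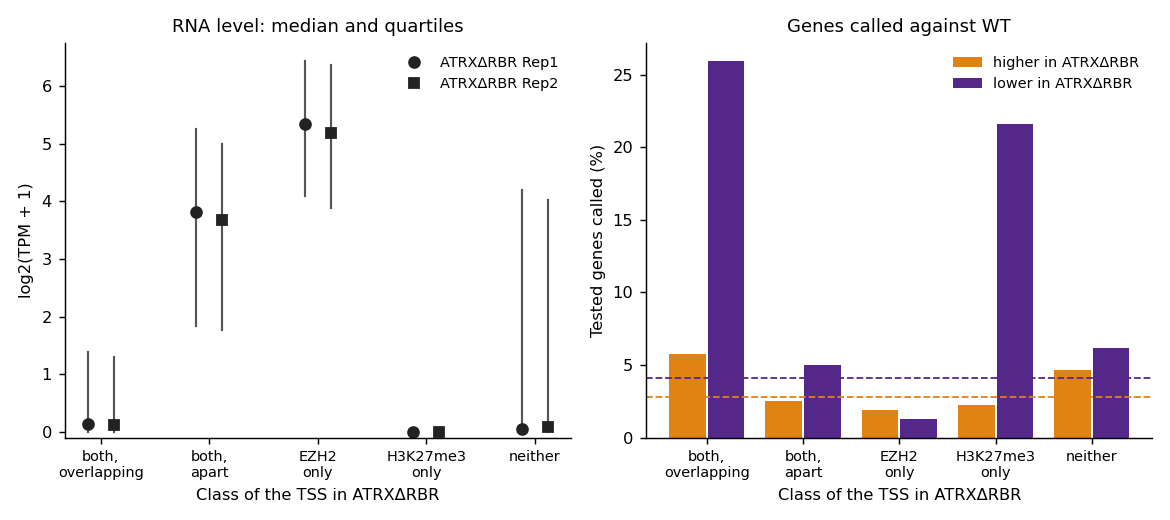
Left, median and quartiles of the RNA level (log2 of TPM + 1) in the 2 ATRXΔRBR libraries by the class of the TSS. Right, share of tested genes called higher (orange) or lower (purple) in ATRXΔRBR against WT, where dashed lines give the shares over all 16287 genes, 2.79% and 4.08%. The lower calls stand at 25.9% where EZH2 and H3K27me3 overlap and 21.6% with H3K27me3 only, and at 1.29% with EZH2 only.

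Of 632 tested genes with both targets 30 were called higher (4.75%) and 122 lower (19.3%), against 2.79% and 4.08% of all genes. The 3 largest called changes in each direction are given here, so their even number follows from the choice. Only genes with counts in every library were ranked. Col2a1, the collagen of cartilage, had 27 and 23 estimated counts in WT and 206 and 287 in ATRXΔRBR, a log2 difference of 3.41 ± 0.24 (SE, adjusted p = 0.000367). H60b, a ligand of an activating receptor of natural killer cells, had 2 and 5 in WT and 64 and 40 in ATRXΔRBR (log2 difference 4.04 ± 0.65, adjusted p = 0.0093). Cited1, a transcriptional coactivator, had 4 and 2 in WT and 12 and 29 in ATRXΔRBR and was called at an adjusted p of 0.0323 by edgeR but not by DESeq2, with an adjusted p of 0.103. Rgl3, an exchange factor of Ral GTPases, had 110 and 120 counts in the WT libraries against 2 and 1 (adjusted p = 0.000595). Iqgap2, a scaffold protein, had 66 and 65 in WT and 1 and 2 in ATRXΔRBR (adjusted p = 0.000925). Epas1, a hypoxia-inducible factor, had 51 and 40 in WT and 1 and 2 in ATRXΔRBR (adjusted p = 0.00217). All 6 carried both EZH2 and H3K27me3 in WT as well, so that a gene could change in either direction and stay in the same class. Rgl3, Iqgap2 and Epas1 passed the count filter through the WT libraries alone.

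Among genes with EZH2 only, P2rx3, an ATP-gated ion channel of sensory neurons, had 3 and 15 counts in the WT libraries against 78 and 96 (log2 difference 3.37 ± 0.56). Actn3 followed with 11 counts in each WT library against 39 and 95, and Pdzd7 with 20 and 14 against 68 and 127. The largest falls were in Cbr3, a carbonyl reductase with 113 and 83 counts in WT against 4 and 3, and Nhs with 91 and 70 against 5 and 2. Atp8a1, a phospholipid flippase, followed with 65 and 60 against 4 and 6. In both directions only genes with counts in every library were ranked. edgeR's adjusted p-values of these 6 genes lay between 0.000925 and 0.0108. Cbr3 had carried both targets in WT, and the other 5 had EZH2 only there too.

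In the lists of developmental genes the calls fell mostly on genes with both targets. Over all genes tested 6.88% were called, 2.79% higher and 4.08% lower. Of 20 tested forkhead, Sox, T-box and Gata genes 4 were called, all lower, of which Gata6, Sox2 and Sox11 carried both and Tbx20 the mark only. Tbx20 had 23 and 13 counts in WT and 0 in both ATRXΔRBR libraries, and passed the count filter through WT alone. DESeq2 did not call Gata6 (adjusted p = 0.163). Sox2 had 637 and 442 counts in WT against 170 and 254 (log2 difference -1.23 ± 0.20), and Sox11 had 201 and 82 against 5 and 6 (-4.51 ± 0.53). Of 31 tested homeobox and Pax genes outside Hox 2 were called higher and 7 lower. Shox2, with both targets, was called higher, at 150 and 127 counts in WT against 247 and 354. Pax3, which carried both targets in WT and neither in ATRXΔRBR, was the other one, at 2 counts in each WT library and 105 and 196 in ATRXΔRBR. It passed the count filter through the ATRXΔRBR libraries alone. Of the 18 tested Hox genes 1 was called, Hoxa10, higher at 45 and 101 counts against 32 and 19. Of 12 PRC2 genes 1 was called, Ezh1, higher, with a log2 difference of 1.03 ± 0.19, and Ezh2 was not. The shares called in the Hox and PRC2 lists were near that over all genes.

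In the Wnt list, 2 genes carried EZH2 only in WT and both targets in ATRXΔRBR. Wnt5a, a ligand of noncanonical Wnt signalling, had H3K27me3 peaks of 2509 and 932 bp there. It had 390 and 312 counts in WT against 38 and 70 (log2 difference -2.60 ± 0.23, edgeR adjusted p = 0.000747). Fzd3 had wider H3K27me3 peaks, of 13143 and 10582 bp, and was not called (log2 difference in counts -0.84 ± 0.24, edgeR adjusted p = 0.0797), with 2.43 and 3.92 TPM in WT against 4.01 and 1.65. Wnt10a carried both in WT and the mark only in ATRXΔRBR, and went from 66 and 41 counts to 0 in both libraries. It passed the count filter through the WT libraries alone, so it could only be lower. Over all protein-coding genes, 261 TSS had EZH2 only in WT and both in ATRXΔRBR. Of these 244 were tested, and 44 were called lower (18.03%) and 2 higher (0.820%). In the opposite case, 115 TSS carried both in WT and EZH2 only in ATRXΔRBR, of which 85 were tested, 10 called higher (11.8%) and 5 lower (5.88%). TSS with both targets in both genotypes had a share of lower calls like that of the first case, 77 of 386 tested (19.9%). It was higher where both targets were found in WT and neither in ATRXΔRBR, with 59 of 138 lower (42.8%). None of these shares was restricted to genes that pass the count filter in each genotype. Over all genes with both targets in WT, that restriction left 83 of 517 called lower (16.1%), against 23.7% without it.

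Compared with WT, the share of EZH2 peaks on the mark was of similar size and its difference was not settled by these lists. In WT 21.3% and 21.5% of kept EZH2 peaks were on the mark, so that the mean of ATRXΔRBR was -1.93 percentage points apart from it (19.5% ± 0.95 against 21.4% ± 0.18, SD, n = 2 lists each, exact permutation p = 0.333). With all listed peaks the difference turned to 2.204 points, and with Rep1 alone to 8.11. EZH2 Rep2 of ATRXΔRBR is the short list, with 11408 peaks. H3K27me3 peaks with EZH2 made up 8.78% and 9.54% in WT against 5.59% and 5.17%, and there too all listed peaks of Rep1 gave 10.97% in ATRXΔRBR, and those of Rep2 5.24%. In the libraries labelled ATRX KD 13.6% of kept EZH2 peaks were on the mark, a difference of 5.85 points from ATRXΔRBR (exact permutation p = 0.333). The names of their lists follow a different pattern from the other genotypes, and for them batch and genotype cannot be told apart.

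Of the TSS with both targets in ATRXΔRBR 817 (75.6%) had both in WT and 261 (24.1%) EZH2 only, and of those with EZH2 only 96.1% had EZH2 only in WT as well. TSS with the mark only were less alike, with 889 (47.8%) in the same class, 665 (35.8%) with neither and 262 (14.1%) with both in WT.

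Chromosomes differed in how much of them the mark covered. In ATRXΔRBR H3K27me3 covered 13.3% and 12.8% of chromosome 19 and 9.29% and 9.08% of chromosome 15, which holds Hoxc, against 9.02% and 10.2% and 5.15% and 5.73% in WT. Over all assembled chromosomes H3K27me3 covered 4.94% and 4.48% in ATRXΔRBR, against 3.61% and 3.98% in WT. It covered 3.59% and 2.99% of the X chromosome, against 2.87% and 3.29% in WT. On the X 14.9% and 12.9% of EZH2 peaks lay on the mark, against 20% and 21.4% in WT. Chromosome 6, which holds Hoxa, had 243 and 252 kept EZH2 peaks against 680 and 679 in WT. Kept EZH2 peaks were also fewer over all chromosomes, at 9456 and 9538 against 15588 and 15706 in WT. RNA also differed by chromosome, with a median log2 difference from WT of 0.32 on chromosome 1 and 0.28 on chromosome 15, and of -0.22 to -0.23 on chromosomes 5, 9 and 18, and on chromosome 6 it was -0.09. The part of these chromosome-wide shifts in the results was not tested.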

How the data were processed

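Per the labels and the study's methods, the authors used Bowtie2 to map CUT&RUN reads to mm10 (GRCm38) and MACS2, at a broad cutoff of 0.1, to call broad peaks in each library on its own. The deposited lists give for each peak a fold enrichment over the background that MACS2 estimated, −log10 p-values and −log10 q-values and a score, which the authors obtained from MACS2; the score was not used. The study gives an approximate range of reads for all its samples together, the lists do not give the depth of each library, and deeper sequencing can give more and wider peaks. Peaks off the 21 assembled chromosomes were left out. RNA-Seq reads were aligned with STAR, and the authors computed the deposited expected counts and TPM with RSEM; deposited FPKM values were not used. Library totals lay between 9574175 and 13694802 estimated counts in WT and ATRXΔRBR. The antibody against H3K27me3 is named differently in the methods and in the supplement.

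Overlaps were counted in Python 3.11.15 (numpy 2.4.6, pandas 2.3.3), with gene positions from GENCODE M21 and sequence from the RefSeq copy of GRCm38, read with pysam 0.24.0. Estimated counts were rounded, genes with more than 10 counts over the 4 libraries kept, and WT and ATRXΔRBR compared with edgeR 4.0.16 (R 4.3.3, TMM); DESeq2 1.42.0 was an alternative. The model was tested on simulated counts and the overlap code on simulated intervals. Peak lists were compared by exact permutation tests.

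Members, gene lists and tests were chosen with earlier results of these data known. Genes named are up to 4 of each list and class ranked by mark width (both, mark only) or EZH2 fold (EZH2 only), the 5 first-ranked of each class and the widest regions. Also named are the 3 largest called changes each way in the classes with both and with EZH2 only, among genes with counts in every library. Genes the paper shows for these targets are named as well. Other list members named, such as the called ones and single Hox genes, were chosen after their values were seen. Of those the paper shows, Fzd7, Ccdc191 and Gins2 had EZH2 only, and Slc25a16 and Qtrt2 (the current symbol used for Qtrd1) carried neither. Alternatives covered the overlap rule, q-values, TSS windows, merging, single replicates, scaling, filters and a replicate block.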

Additional observations from a re-analysis of the deposited data

How the results depend on the processing

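The share of kept EZH2 peaks at a TSS was 69.0% with reciprocal overlap of 50%, 58.3% with all listed peaks, 74.2% at a q-value of 0.01 or less, 68.2% with a window of 1 kb, 66.2% with protein-coding genes only and 69.5% by midpoints, and with only Rep1 or only Rep2 it lay between 50.2% and 66.5%. The share of EZH2 peaks on the mark was 15.0% with reciprocal overlap, 24.5% with all listed peaks, 18.4% after merging peaks closer than 1 kb and 17.8% when 50% of the peak had to be covered, and between 19.4% and 29.7% with a single list of each target. The share of H3K27me3 peaks with EZH2 was 4.52%, 8.11%, 9.41% and 1.02% with reciprocal overlap, all peaks, the stricter q-value and 50% covered, and between 5.24% and 10.97% with a single list. The difference in the EZH2-on-mark share from WT turned from -1.93 to 2.204 points with all peaks and lay between -3.70 and 8.11 with a single list. With all EZH2 peaks of each list, an alternative chosen after seeing the data, 53.3% of H3K27me3 peaks of 20 kb or more held EZH2, against 29.1%. The width ratio kept its direction under every alternative run, and was 3.31 to 4.54 with a single list and 8.57 at the stricter q-value.

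The numbers pair no samples by the labels. As a replicate block, the width ratio taken within each replicate number averaged 4.57, and in RNA-Seq the block gave 1068 called genes against 1120. Deviations of same-numbered RNA-Seq libraries were correlated at -0.55, and with crossed numbers 5547 genes were called, an alternative chosen after seeing the data. Without a filter other than 1 count, 1979 genes were called, and 435 against 185 among TSS with EZH2 only. Leaving out each RNA-Seq library gave 1050 to 1523 called genes, and 191 to 318 among TSS with EZH2 only, where the highest was without WT replicate 2. Genes called lower with the mark only fell from 76 to 35 when each genotype had to pass the filter. The cause of these changes was not tested beyond the fewer or more peaks, genes or libraries that enter. Of 117 alternative values, 74 kept their call or stayed within the spread of lists or 1.5 times the count, 41 moved and 2 turned direction. Counts of peaks are limited by the depth of each library, which the lists do not give.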
